A study of Homo sapiens with 9 samples.

Results

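LAT, IZUMO1, EFCAB2, ANKRD29 and DIO2 are 5 genes that 22Rv1 prostate carcinoma cells transcribed at a low level and that stood several-fold higher when the cells carried the S239D form of PDCD4. They were chosen by name for that rise, out of 60623 genes listed and 16213 tested, and all 5 passed the filter on low counts. The difference between S239D and the other libraries is therefore given as a description, with no test. Each lies on a different chromosome, and those with a well described role belong to different processes.

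PDCD4 binds the translation initiation helicase EIF4A and restrains it. Each group of libraries came from 22Rv1 cells in which the cells' own PDCD4 had been reduced by a short hairpin RNA and then replaced, with 3 libraries per group. The S239D group received a form with aspartate in place of serine, which mimics a phosphate. The S239A group received alanine, which cannot be phosphorylated, and the WT group received the wild-type protein. The study asks how PDCD4 phosphorylated through PLK1, a kinase of mitosis, bears on resistance to enzalutamide, an antiandrogen. Nothing in the labels ties the libraries of a group to independent cultures or cell lines. The p-values thus rest on the spread among these libraries alone, and that spread may be technical.

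LAT is the membrane adaptor that T cells phosphorylate after receptor engagement, so that it can gather GRB2, PLCG1 and other effectors. IZUMO1 sits on the sperm surface and binds JUNO (the product of IZUMO1R) on the egg before the gametes fuse. EFCAB2 encodes an EF-hand protein counted among the subunits of the nexin-dynein regulatory complex of motile cilia. DIO2 is the selenoenzyme that converts the prohormone thyroxine into active triiodothyronine inside cells. ANKRD29 encodes a protein of ankyrin repeats whose role is not well described.

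RefSeq start windows on GRCh38.p14 were at hand for LAT, IZUMO1 and DIO2, with 2 alternative starts each. The 250 bases before a start are shown for 3 of the 6 windows, because these hold a motif of interest, marked in capitals. For IZUMO1 and DIO2 the capitals mark TGACGTCA, the cyclic AMP response element (CRE). For LAT they mark TGAGTCA, the AP-1 site TGACTCA read on the other strand. Each line runs 5′ to 3′ on the strand of its gene.
LAT, plus strand, chr16:28984553-28984802: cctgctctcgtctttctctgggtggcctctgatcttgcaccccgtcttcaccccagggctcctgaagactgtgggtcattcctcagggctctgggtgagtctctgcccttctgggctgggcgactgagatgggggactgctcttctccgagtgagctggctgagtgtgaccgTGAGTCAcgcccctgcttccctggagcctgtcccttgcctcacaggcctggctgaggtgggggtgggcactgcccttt
IZUMO1, minus strand, chr19:48746910-48747159: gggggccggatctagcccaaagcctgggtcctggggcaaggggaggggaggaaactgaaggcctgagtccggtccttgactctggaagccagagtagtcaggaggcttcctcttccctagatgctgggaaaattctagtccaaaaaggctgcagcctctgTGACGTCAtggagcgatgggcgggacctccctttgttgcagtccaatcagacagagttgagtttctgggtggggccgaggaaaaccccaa
DIO2, minus strand, chr14:80212179-80212428: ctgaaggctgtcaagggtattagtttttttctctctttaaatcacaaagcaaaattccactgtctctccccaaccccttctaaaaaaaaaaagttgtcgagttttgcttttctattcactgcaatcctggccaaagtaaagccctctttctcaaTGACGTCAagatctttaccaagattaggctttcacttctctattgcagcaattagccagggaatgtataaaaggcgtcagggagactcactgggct

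The CRE began 90 bases before the IZUMO1 start and 96 bases before the DIO2 start. Of 35116 start windows of the same length, 1.65% held TGACGTCA, which reads the same on both strands. The full CRE was added to the search after the windows were seen, so this share is a description and not a test. The AP-1 site lay 78 bases before the upstream LAT start, and 4.20% of windows held it on either strand. A TATA box (TATAAA) lay 31 bases before the same DIO2 start, as in 10.7% of windows. The shorter CRE core TGACGT, present in 7.10% of windows, occurred in these windows only as part of the full element. The CCAAT box (CCAAT, in 32.0% of windows) matched in both IZUMO1 windows, and the GC box (GGGCGG, in 42.6%) matched in the IZUMO1 window shown and in the LAT window not shown, on either strand. No match to E-box CACGTG, HIF core ACGTG or ETS core CCGGAA was found on either strand in the 6 windows. Base composition differed between the genes, from 40.8% G and C in the DIO2 window shown to 63.2% in the LAT window shown, with a median of 58% over all windows. These are matches of letters, and no binding was measured.

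Library totals ran from 5696841 to 9688554 counts. PDCD4 itself, which these reads cannot divide between endogenous and introduced transcripts, stood at 16.8 to 17.1 CPM (counts scaled to library size) in S239D, 19.0 to 25.0 CPM in S239A and 20.4 to 24.9 CPM in WT. In S239D the PDCD4 transcript fell by 0.44 on the log2 scale against WT (SE 0.13, edgeR adjusted p = 0.0164) and by 0.40 against S239A (SE 0.13, edgeR adjusted p = 0.0245), so the amount of PDCD4 transcript and its form cannot be told apart in what follows. The mitochondrial share of counts was 4.72%, 6.01% and 4.9% in S239D, 3.33%, 5.38% and 2.99% in S239A and 2.99%, 2.83% and 3.04% in WT. Replicate 2 was the highest of its group in S239D and in S239A. Every S239D library lay above every WT library, and the part of this share in the results was not tested. Of 14 prostate luminal markers 13 were tested, and their summed level was 4361 to 4580 CPM in S239D, 5684 to 6276 in S239A and 5370 to 5473 in WT, so markers of the labelled lineage were present. They moved with S239D: 4 of the 13 were called higher and 7 lower against WT (84.6%, where 41.4% of all genes were called), with a median log2 fold change of -0.40, and their part in the results was not tested. Fewer cells with a transcript and less of it per cell cannot be told apart in these bulk libraries.

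In every one of the 5 genes the lowest S239D library lay above the highest library of S239A and WT, at a level 2.30 to 5.13 times as high. Over all genes tested, 41.4% passed the test for S239D against WT (19.7% higher, 21.7% lower) and 43.6% for S239D against S239A (20.9% higher, 22.7% lower). These shares are given as background, and nothing is read from them here because the genes were chosen on these contrasts. From the fit of all genes, the log2 fold changes of S239D against WT ran from 1.84 to 2.59 with a median of 2.13, where the median of all tested genes was 0.00075. Against S239A they ran from 2.40 to 3.01, with a median of 2.51. Both comparisons use the same S239D libraries. Ordered by log2 fold change against WT among the 16213 genes, LAT was 17th, IZUMO1 22nd, ANKRD29 56th, DIO2 79th and EFCAB2 98th. Of 3184 tested genes with a WT mean between 1 and 5 CPM, 51 were at least 3-fold higher in S239D, 36 of them with a symbol, and 4 of the 5 genes fell in that range. DIO2 lay just above it at 5.08 CPM in WT. Among genes with a symbol, LAT stood in that order between ZKSCAN2-DT (2.68) and GDNF-AS1 (2.56), and IZUMO1 between the cadherin gene CDH12 (2.51) and the metallothionein gene MT1G (2.47). ANKRD29 stood between the readthrough locus TEN1-CDK3 (2.15) and the urocortin gene UCN2 (2.12). DIO2 stood between the claudin gene CLDN9 (1.95) and LINC01134 (1.94), and EFCAB2 between BAIAP2L2 (1.84) and SMOC1 (1.83).

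**Figure D1:**
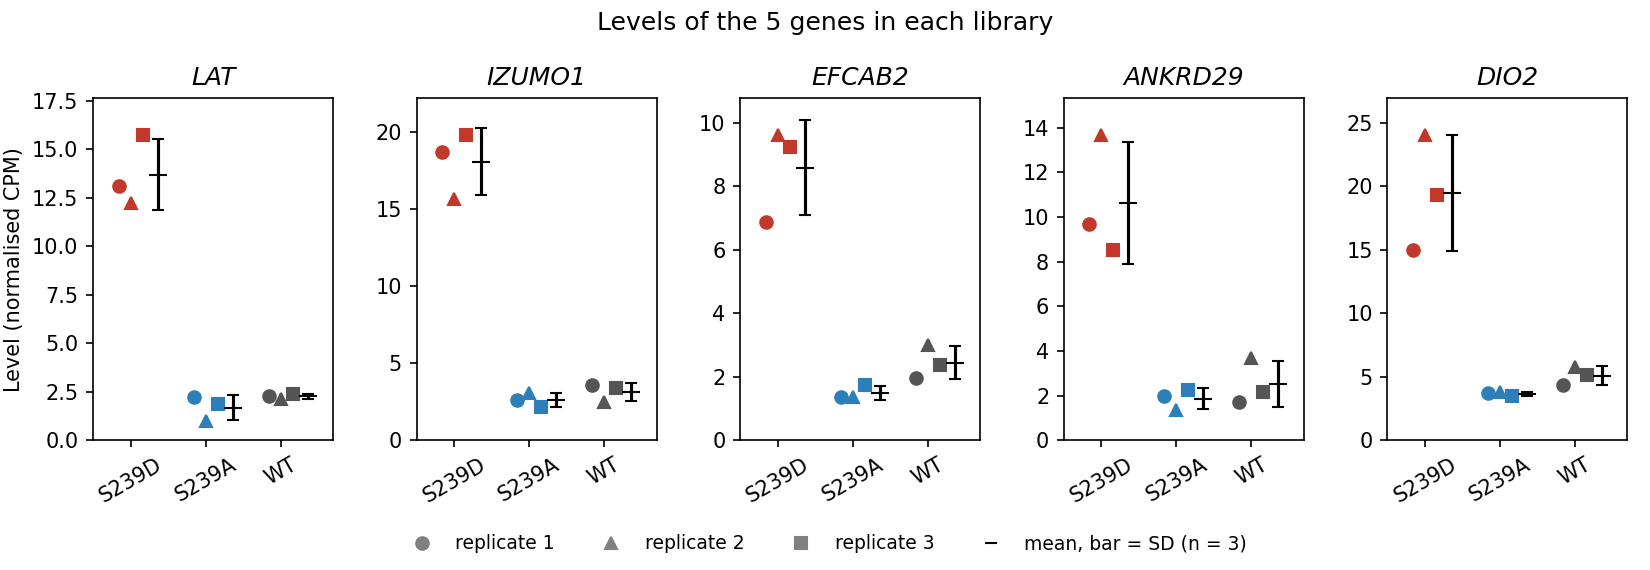
Level of each gene (normalised CPM, linear axes from 0, a separate scale per gene) in the 9 libraries, with S239D at the left, S239A in the middle and WT at the right; marker shapes give the replicate and the bars the mean with SD (n = 3). All S239D libraries lie above all others, and the S239A and WT libraries of each gene lie between 0.983 and 5.79 CPM.

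LAT (ENSG00000213658, plus strand, chromosome 16, 28984826 to 28990783) had 13.1, 12.2 and 15.7 CPM in S239D, against 2.22, 0.983 and 1.84 CPM in S239A and 2.28, 2.11 and 2.38 CPM in WT. The S239D libraries were close to each other, and the lowest value of all was that of S239A replicate 2. These levels rest on 356 counts over the 3 S239D libraries, 44 over S239A and 54 over WT. The log2 fold change was 2.59 (SE 0.24) against WT and 3.01 (SE 0.25) against S239A. Without S239A replicate 1 the difference from S239A was 3.23, and without S239A replicate 2 it was 2.76. Per transcript length, LAT stood at 20.1 ± 1.6 TPM (a level corrected for transcript length and library size) in S239D, 2.64 ± 1.5 in S239A and 2.95 ± 0.57 in WT (SD, n = 3).

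IZUMO1 (ENSG00000182264, minus strand, chromosome 19, 48740852 to 48746909) had 18.7, 15.7 and 19.8 CPM in S239D, against 2.59, 3.07 and 2.15 CPM in S239A and 3.58, 2.46 and 3.40 CPM in WT. This was the tightest of the S239D groups, with a coefficient of variation of 12.0%. The sums were 469 counts in S239D, 67 in S239A and 77 in WT. Its log2 fold change was 2.49 (SE 0.20) against WT and 2.80 (SE 0.20) against S239A. In TPM the group means were 20.9 ± 2.0 in S239D, 3.07 ± 0.85 in S239A and 3.94 ± 1.5 in WT (SD, n = 3).

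EFCAB2 (ENSG00000203666, plus strand, chromosome 1, 244969705 to 245127164) had the lowest S239D level of the 5 genes in CPM. It stood at 6.86, 9.62 and 9.24 CPM in S239D, against 1.36, 1.35 and 1.74 CPM in S239A and 1.95, 2.99 and 2.38 CPM in WT. S239D replicate 1 was the lowest of its group but still 2.30 times the highest library of S239A and WT. The sums were 222 counts in S239D, 39 in S239A and 56 in WT, and the log2 fold change was 1.84 (SE 0.25) against WT and 2.51 (SE 0.26) against S239A. Its TPM was 15.9 ± 4.4 in S239D, 2.98 ± 0.70 in S239A and 4.20 ± 1.6 in WT (SD, n = 3).

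ANKRD29 (ENSG00000154065, minus strand, chromosome 18, 23598926 to 23662911) varied most within S239D, with a coefficient of variation of 25.6%. Its levels were 9.68, 13.7 and 8.50 CPM in S239D, against 1.98, 1.35 and 2.25 CPM in S239A and 1.73, 3.69 and 2.15 CPM in WT. Replicate 2 was the highest library in both S239D and WT and the lowest in S239A. The sums were 271 counts in S239D, 49 in S239A and 56 in WT. Against WT the log2 fold change was 2.13 (SE 0.29) and against S239A 2.49 (SE 0.30), where limma on log2(TPM + 1) gave 1.70 against S239A. TPM averaged 10.3 ± 3.7 in S239D, 2.46 ± 1.0 in S239A and 2.37 ± 0.76 in WT (SD, n = 3).

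DIO2 (ENSG00000211448, minus strand, chromosome 14, 80197527 to 80387757) gave the most counts, 501 in S239D, 95 in S239A and 118 in WT. It stood at 14.9, 24.1 and 19.3 CPM in S239D, against 3.70, 3.81 and 3.48 CPM in S239A and 4.33, 5.79 and 5.10 CPM in WT. The S239D libraries spread widely, with a coefficient of variation of 23.4%, while that of the S239A libraries was 4.55%. The log2 fold change was 1.95 (SE 0.20) against WT and 2.40 (SE 0.20) against S239A. Fitted by limma as log2(TPM + 1), DIO2 stood at 1.27 against WT and 1.23 against S239A. A pseudocount of 0.1 gave 1.65 against WT and 1.63 against S239A. Its mean TPM was the lowest of the 5 genes in each group, though not in every library, at 4.10, 8.76 and 4.64 TPM in S239D, 0.84, 1.64 and 3.51 in S239A and 2.43, 1.28 and 1.55 in WT.

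Set in order of TPM within S239D, the genes ran IZUMO1, LAT, EFCAB2, ANKRD29 and DIO2. The SD ranges of each neighbouring pair in that order overlapped. In WT the order was EFCAB2, IZUMO1, LAT, ANKRD29 and DIO2, again with overlapping SD ranges between neighbours. All 5 were detected in every S239A and WT library, since the lowest library value, 0.983 CPM for LAT, exceeded that library's floor of 3 counts (0.369 CPM, counting error only).

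The genes were not chosen for a difference of S239A against WT, and this comparison was tested. Its libraries also enter both contrasts used for the choice, so the test is not independent of that choice. None of the 5 passed (edgeR's quasi-likelihood test with Benjamini-Hochberg adjustment over all genes), where 0.00617% of all genes did. Of the 17 alternatives, DESeq2 gave none of the 5 an adjusted p in this comparison, so its count of 0 is not a test. Under all the others, limma among them, the count was also 0. EFCAB2 alone, 1 of the 5, had an unadjusted p under 0.05, as did 9.76% of all genes (0.0459, adjusted p = 0.501 in edgeR), with a log2 fold change of -0.67 and a 95% interval of -1.33 to -0.014. For the other 4 the log2 fold changes lay between -0.45 and -0.31, with edgeR adjusted p between 0.557 and 0.788. All 5 estimates were thus below 0 on the CPM scale, where the median of all genes was 0.0017, but no single one was told apart from 0 after adjustment. In TPM the S239A mean was 1.04 times the WT mean for ANKRD29 and 1.14 times for DIO2, so the direction of these 2 differed between the scales. The intervals were wide: that of LAT ran from -1.08 to 0.23 and that of IZUMO1 from -0.83 to 0.21.

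Within groups the 5 genes fell into different patterns. EFCAB2, ANKRD29 and DIO2 were highest in replicate 2 of S239D, by 0.18, 0.39 and 0.33 above the group mean on the log2 scale. LAT and IZUMO1 were lowest in that library, at -0.15 and -0.20. The same split was seen in WT, where replicate 2 was 0.29, 0.57 and 0.19 above the mean for EFCAB2, ANKRD29 and DIO2, and LAT and IZUMO1 stood at -0.086 and -0.31. In S239A replicate 2 only DIO2 and LAT kept to the split. DIO2 was highest (0.053) and LAT lowest (-0.59) there as well, while EFCAB2 and ANKRD29 were lowest (-0.11 and -0.37) and IZUMO1 highest (0.23). S239D replicate 2 had the highest mitochondrial share of its group (6.01%) and WT replicate 2 the lowest (2.83%) and the smallest total. The WT replicate 2 values rest on 11.9 to 33 counts per gene. The part of counting error, depth or mitochondrial share in these patterns was not tested.

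**Figure D2:**
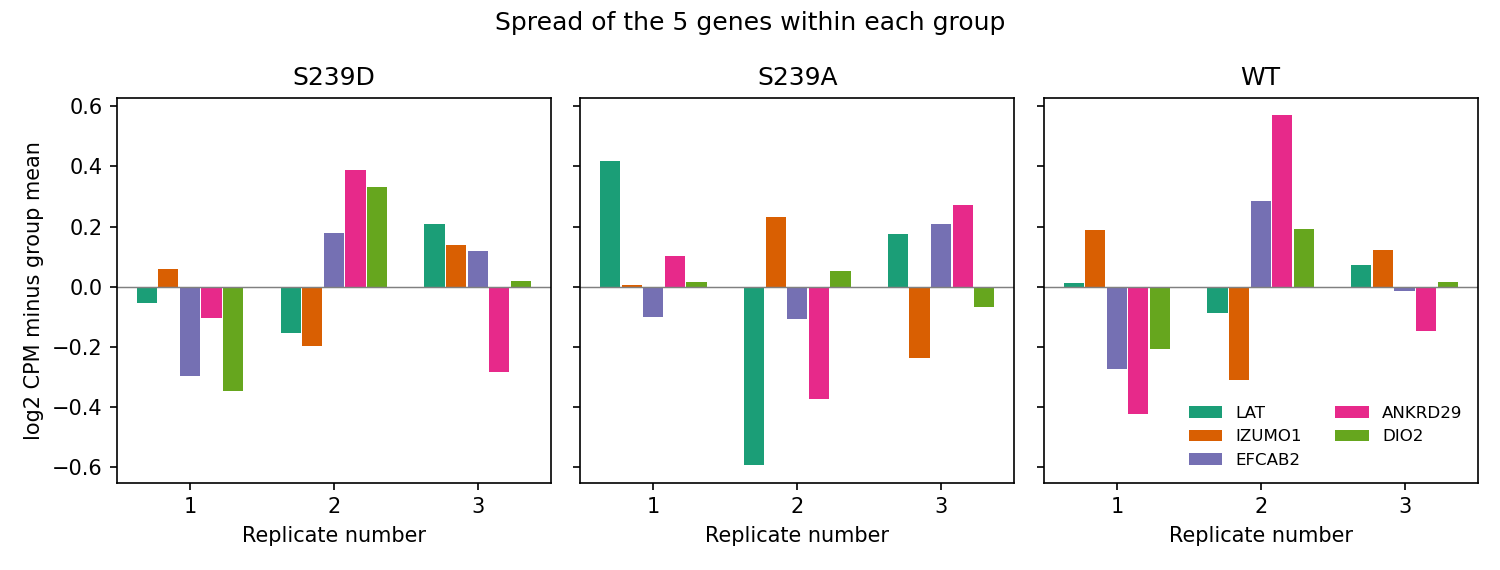
Difference of each library from its group mean (log2 CPM, 0 is the group mean) for the 5 genes, with S239D at the left, S239A in the middle and WT at the right, and replicate numbers on the horizontal axis, which only name the libraries. In replicate 2 of S239D and of WT, EFCAB2, ANKRD29 and DIO2 lie above 0 and LAT and IZUMO1 below it.

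Likeness was measured as the root-mean-square difference of gene-centred log2 CPM over the 9 libraries, among tested genes with a symbol. The genes share libraries and depth, and the profiles are dominated by the level in S239D. EFCAB2 and DIO2 were each other's nearest gene, at 0.16, although they lie on chromosomes 1 and 14. Next to DIO2 came A1CF, an RNA-editing cofactor gene (0.18), and C2orf92 (0.18), and next to EFCAB2 came C2orf92 and MIR34AHG, the host transcript of the microRNA miR-34a (both 0.23). ANKRD29 was nearest to MIR34AHG (0.23), C2orf92 (0.24) and EFCAB2 (0.27). For LAT the nearest were MT1G (0.30), PDIA2, a protein disulfide isomerase gene (0.34), and ATOH1, a neural and secretory lineage factor gene (0.35). For IZUMO1 they were FBXL19-AS1 (0.28), MT1G (0.30) and ALB, which encodes albumin (0.31). LAT and IZUMO1 were 0.37 apart, and IZUMO1 and ANKRD29, the least alike of the 10 pairs, 0.55.

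The ratio of counts to TPM shows how long the transcripts were to which the authors' software gave the reads, since TPM divides by length. It was put on a scale of bases with genes that have 1 annotated transcript. GENCODE 29 lists 17 transcripts for LAT, 6 for IZUMO1, 16 for EFCAB2, 8 for ANKRD29 and 11 for DIO2. The implied mean length of IZUMO1 was 1443 to 1520 bases in S239D, 1173 to 1595 in S239A and 1140 to 1581 in WT, with a longest coding transcript of 1621. For LAT it was 1126 to 1463 bases in S239D, 956 to 1520 in S239A and 1140 to 1502 in WT. In both genes the ranges of the groups overlapped, and for IZUMO1 the S239D range lay inside the other 2. EFCAB2 had 966 to 1098 bases in S239D, 854 to 1108 in S239A and 973 to 1296 in WT, far below its longest annotated transcript of 6167 bases.

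ANKRD29 transcripts were longer in each S239D library, 1657 to 1964 bases, than in any S239A library, 1132 to 1595 bases, while the WT range, 1375 to 1908, overlapped both. DIO2 was the least settled, at 4245 to 5950 bases in S239D, 1558 to 6122 in S239A and 2615 to 6141 in WT. Its S239A replicates 1 and 3 had almost the same counts, 30 and 34, but implied lengths of 6122 and 1558 bases, and TPM of 0.84 and 3.51. Its fold change in TPM means, 3.33 against WT and 2.92 against S239A, was accordingly lower than in CPM means, 3.83 and 5.30. These lengths are estimates from few counts and are given with no test.

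**Figure D3:**
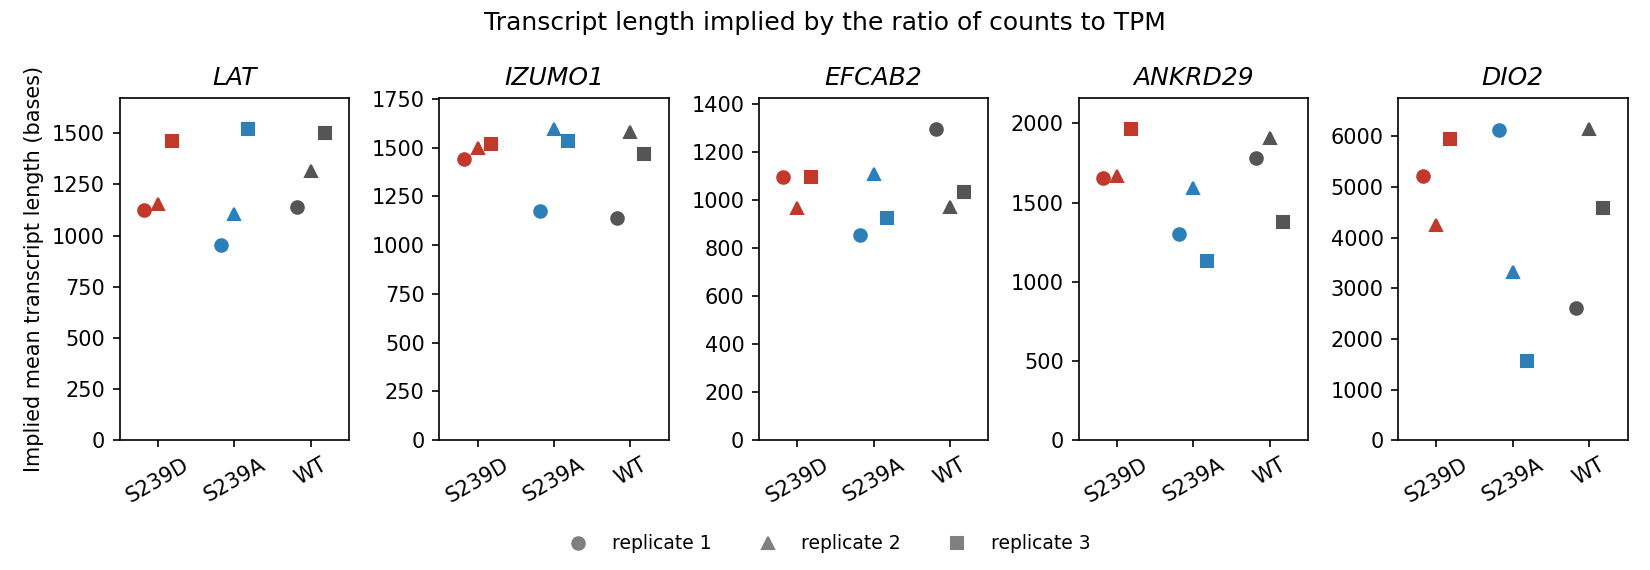
Mean transcript length (bases, linear axes from 0) implied by the deposited counts and TPM for each gene, with S239D at the left, S239A in the middle and WT at the right, 1 point per library. The DIO2 points scatter from 1558 to 6141 bases, and the ANKRD29 points of S239D lie above those of S239A.

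The genes around each of the 5 were not chosen by the rise. Within 500 kb of the 5 genes 197 others were listed and 83 tested, and 50 of them passed the edgeR test for S239D against WT, 35 higher and 15 lower (60.2%, against 41.4% of all genes). For S239D against S239A 50 passed as well, 33 higher and 17 lower, against 43.6% of all genes. Over all genes 19.7% were called higher and 21.7% lower against WT. The lean towards higher calls depended on the window: within 1000 kb, 42 were higher and 36 lower of 149 tested against WT, and 42 higher and 40 lower against S239A. With limma on log2(TPM + 1), 31 of 93 neighbours passed against WT, where 25.1% of all genes did. The loci differed: 14 of 29 tested neighbours were higher and 3 lower around LAT, 13 higher and 12 lower of 40 around IZUMO1, 2 higher and 0 lower of 4 around EFCAB2, and 6 higher and 0 lower of 9 around ANKRD29. DIO2 had 1 tested neighbour, which was not called.

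At the LAT locus, SPNS1, a lysosomal phospholipid transporter gene on the same strand, ends 278 bases before LAT begins. It had 92.1, 78.7 and 94.8 CPM in S239D, against 54.3, 62.6 and 55.0 in S239A and 48.8, 55.3 and 59.3 in WT, and rose against WT by 0.70 (SE 0.11, edgeR adjusted p = 0.000153). An unnamed locus, ENSG00000261067, which GENCODE 29 marks as an overlapping locus (28974804 to 28990775), covers most of SPNS1 and nearly all of LAT on the same strand. It had 6.49, 3.45 and 8.82 CPM in S239D, against 1.23, 2.46 and 2.77 in S239A and 1.73, 2.46 and 1.36 in WT. Its log2 fold change against WT was 1.80 (SE 0.39, edgeR adjusted p = 0.00195), a call lost with limma on log2(TPM + 0.1) (adjusted p up to 0.0664). ENSG00000261552, which overlaps LAT, had 13 counts in total and was not tested. The expected counts of LAT and SPNS1 were not whole in any library, and those of ENSG00000261067 were whole in S239D replicate 1 only. Those of IZUMO1, EFCAB2, ANKRD29 and DIO2 were whole throughout. Some reads of LAT, SPNS1 and ENSG00000261067 were thus divided between genes by the counting, so their values are uncertain to that extent. An unnamed gene 17943 bases away on the other strand, ENSG00000260853, rose by 1.43 (edgeR adjusted p = 0.00242), and NPIPB9, of a family of near-identical copies, by 1.41 (edgeR adjusted p = 0.00608). The call of ENSG00000260853 was lost with limma on TPM (adjusted p up to 0.0525). The nearest tested gene on the other side, NPIPB11 at 390571 bases, rose by 1.07 (edgeR adjusted p = 0.0436), a call lost with DESeq2, with the replicate block and without S239A replicate 1, S239D replicate 2 or any 1 WT library (adjusted p up to 0.245). Chromosome 16 as a whole had a median log2 fold change of 0.098.

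IZUMO1 lies in a row of 3 genes on the same strand that all rose in S239D. FUT1, a fucosyltransferase gene that makes the H antigen, lies 1102 bases upstream. It had 118, 101 and 107 CPM in S239D, against 52.6, 42.0 and 47.7 in S239A and 38.6, 44.8 and 39.9 in WT. FUT1 rose by 1.41 on the log2 scale against WT (SE 0.11, edgeR adjusted p = 3.48e-07). RASIP1, a RAS-interacting gene of endothelial cells, lies 242 bases downstream. It had 92.1, 63.5 and 72.8 CPM in S239D, against 22.3, 18.3 and 23.5 in S239A and 21.0, 17.6 and 23.4 in WT. RASIP1 rose by 1.87 against WT (SE 0.15, edgeR adjusted p = 6.43e-07). In both genes every S239D library lay above all S239A and WT libraries, while S239A and WT overlapped. Beyond this row the locus went both ways. The sulfotransferase gene SULT2B1 fell by 2.55 (edgeR adjusted p = 6.12e-05) and CCDC114, a dynein docking gene of cilia, fell by 2.25 (edgeR adjusted p = 0.000302). Chromosome 19 as a whole had a median of -0.0048.

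ANKRD29 lies between NPC1 and LAMA3 on chromosome 18. LAMA3, which encodes a laminin chain of epithelial basement membranes, is transcribed away from ANKRD29 and starts 26532 bases from it. It had 15.1, 17.8 and 15.4 CPM in S239D, against 5.18, 4.18 and 3.69 in S239A and 2.93, 2.63 and 1.93 in WT. The rise of LAMA3 was 2.69 against WT (SE 0.21, edgeR adjusted p = 4.41e-07) and 1.89 against S239A (SE 0.19, edgeR adjusted p = 3.42e-06), where the second call was lost with limma on log2(TPM + 0.1) (adjusted p = 0.0587). NPC1, a lysosomal cholesterol transporter gene 12420 bases away on the other side, rose by 0.73 (SE 0.10, edgeR adjusted p = 8.80e-05). OSBPL1A, an oxysterol-binding protein gene, rose by 0.80 (edgeR adjusted p = 4.30e-05) and CABLES1 by 0.79 (edgeR adjusted p = 0.0305). The CABLES1 call did not survive leaving out any 1 S239D library, or WT replicate 1 or 2 (adjusted p up to 0.139). The median over the 9 tested neighbours was 0.68, and that over the 232 tested genes of chromosome 18 was 0.21. The copy number of the locus was not measured.

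At the EFCAB2 locus the nearest tested gene, KIF26B, a kinesin gene 27821 bases away, stood at 0.23 (SE 0.18, edgeR adjusted p = 0.318), with 10.5, 12.3 and 9.66 CPM in S239D, 10.0, 11.9 and 7.99 in S239A and 9.54, 8.43 and 9.52 in WT. HNRNPU, an abundant nuclear RNA-binding protein gene on the other side, rose by 0.37 (SE 0.074, edgeR adjusted p = 0.00122) and COX20, a cytochrome oxidase assembly gene, by 0.39 (SE 0.092, edgeR adjusted p = 0.00369). Both call and direction of HNRNPU and COX20 held under the 17 alternatives. ENSG00000272195, which overlaps EFCAB2, had 30 counts in total and was not tested. At the DIO2 locus CEP128, a centriole gene, stood at -0.23 (SE 0.22, edgeR adjusted p = 0.42), with 11.1, 8.51 and 7.56 CPM in S239D, 9.01, 13.9 and 8.50 in S239A and 8.99, 10.5 and 12.4 in WT. DIO2-AS1, which overlaps DIO2 on the other strand, had 0 counts in all 9 libraries.

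**Figure D4:**
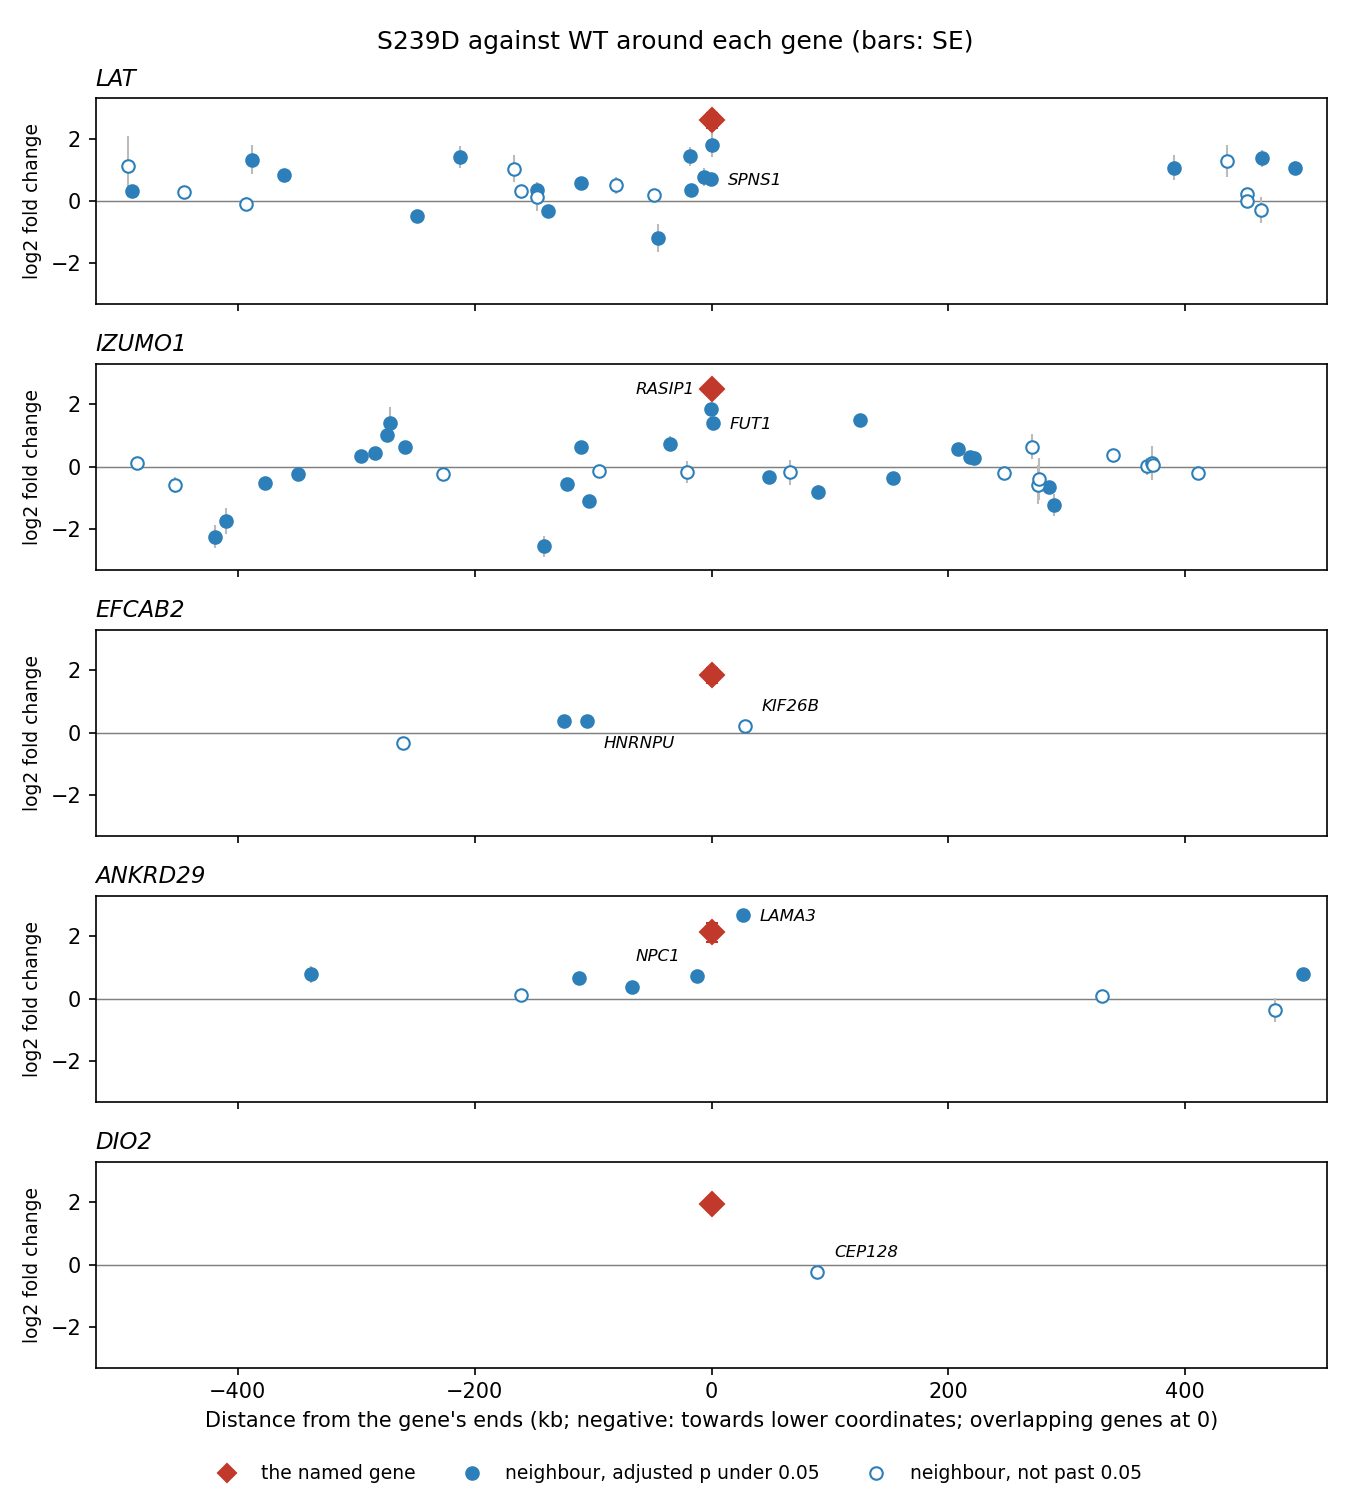
Log2 fold change of S239D against WT (bars, SE) for each of the 5 genes (diamonds) and the tested genes within 500 kb (circles, filled where the edgeR adjusted p was under 0.05), by distance in kb from the ends of the gene. FUT1 (1.41) and RASIP1 (1.87) rise beside IZUMO1 and LAMA3 (2.69) beside ANKRD29, while KIF26B (0.23) and CEP128 (-0.23), beside EFCAB2 and DIO2, do not pass.

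Genes that work with LAT, IZUMO1, EFCAB2 and DIO2 were read from 4 lists. Of 127 genes 71 were tested, and against WT 14 were higher and 17 lower in S239D, 31 in all (43.7%), close to the 41.4% of all genes. The median log2 fold change over the 71 was -0.13. Against S239A 12 were higher and 21 lower, 46.5% where 43.6% of all genes were called.

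Of 34 genes of LAT signalling 15 were tested, and 5 rose and 5 fell in S239D against WT, 66.7% where 41.4% of all genes were called. Against S239A 2 rose and 5 fell, 46.7% where 43.6% of all genes were called. Most of the T-cell part was missing. The receptor chain genes CD3D, CD3E and CD3G had 0 counts in all libraries, and the adaptor genes GRAP2 and LCP2 had 1 and 2 counts in total. Of the direct partners, GRB2 stood at 130 ± 5.0 CPM in S239D and 123 ± 1.1 in WT (0.084, edgeR adjusted p = 0.394). PLCG1, the phospholipase that LAT recruits, was at 85.1 ± 5.4 CPM in S239D and 72.5 ± 2.5 in WT (0.23, edgeR adjusted p = 0.0478), a call lost under 11 of the 17 alternatives, each left-out WT library among them (adjusted p up to 0.184). LAT2, the related adaptor of B cells and mast cells, fell by 1.33 (SE 0.15, edgeR adjusted p = 9.62e-06), to 6.96 ± 0.99 CPM in S239D, against 17.7 ± 1.4 in WT. The kinase genes FYN and SYK fell by 1.32 and 0.69 (edgeR adjusted p = 1.38e-05 and 0.000173). MAP4K1 was near the floor in S239D, at 0.398 CPM, against 1.92 in WT (-2.28, edgeR adjusted p = 0.00762), and its call was lost without WT replicate 3 and with limma on TPM (adjusted p up to 0.348).

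T-cell markers were checked in the same libraries. None of 15 was tested, 8 had 0 counts throughout, TRAC and TRBC2 among them, and their summed level was 0.980 to 1.36 CPM in S239D, 1.11 to 1.84 in S239A and 2.04 to 2.11 in WT. The S239D and S239A ranges overlapped and lay below that of WT. All 3 rest on few counts, as 3 counts stood for 0.307 to 0.527 CPM. The part of T cells in the level of LAT was not tested. Endothelial markers (7 listed, none tested) summed to 0.525 to 1.47 CPM in S239D, 0.738 to 1.13 in S239A and 0.542 to 1.70 in WT. Myeloid markers summed to 0.945 to 1.48 CPM in S239D, 0.717 to 3.33 in S239A and 0.702 to 2.28 in WT, with 0 of 1 tested called. Of 4 tested fibroblast markers 0 rose and 2 fell in S239D against WT, 50% where 41.4% of all genes were called.

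Of 27 genes of sperm and egg fusion 26 were listed, 9 had no count and 9 were tested. Of those tested 0 rose and 3 fell in S239D against WT, 33.3% where 41.4% of all genes were called. IZUMO1R, the gene of the egg receptor JUNO, had 0 counts, as did the sperm genes TMEM95, SPACA1, IZUMO2 and IZUMO3. SPACA6 and TMEM81, which encode sperm membrane proteins reported to form a complex with IZUMO1, stood at -0.35 and 0.47 (edgeR adjusted p = 0.535 and 0.227). CD9, the tetraspanin that eggs need for fusion and that many epithelia express, fell to 120 ± 7.2 CPM in S239D, against 220 ± 13 in WT (-0.87, SE 0.093, edgeR adjusted p = 7.24e-06). ACRBP, of the acrosome, fell by 1.09 (edgeR adjusted p = 0.00219), and ZP3, of the egg coat, fell by 0.50 (edgeR adjusted p = 0.00528), a call lost with limma on TPM (adjusted p up to 0.0524).

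Male germ cell markers were nearly absent, with 10 of 15 at 0 counts, DDX4, DAZL, PRM1 and PRM2 among them. Their summed level was 3.18 to 6.17 CPM in S239D, 1.85 to 3.56 in S239A and 1.30 to 2.95 in WT. Of the 2 tested, ACRV1 rose by 1.45 against WT (edgeR adjusted p = 0.0327) and SYCP3 stood at 0.99 (edgeR adjusted p = 0.111). The share called was thus 50%, where 41.4% of all genes were called. The ACRV1 call was lost with DESeq2 and without WT replicate 1 or 2 or S239D replicate 2 or 3 (adjusted p up to 0.143). Its part in the level of IZUMO1 was not tested.

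Of 34 genes of motile cilia 20 were tested. In S239D 3 rose and 4 fell against WT, 35% where 41.4% of all genes were called. Subunits of the complex that holds EFCAB2 stood on both sides. DRC3 rose by 1.39 (SE 0.25, edgeR adjusted p = 0.000483), to 7.81 ± 0.91 CPM in S239D, against 2.96 ± 0.79 in WT. IQCG rose by 0.76 (SE 0.18, edgeR adjusted p = 0.00385) and GAS8 by 0.47 (SE 0.12, edgeR adjusted p = 0.00623). IQCD, a further subunit, fell by 1.08 (SE 0.26, edgeR adjusted p = 0.00447), DRC7 stood at -0.13 (edgeR adjusted p = 0.768) and CCDC65 at 0.33 (edgeR adjusted p = 0.635). The dynein gene DNAH11 fell by 1.47 (edgeR adjusted p = 7.72e-05), a call lost with limma on TPM (adjusted p up to 0.237), and RFX2, a ciliary transcription factor gene, fell by 1.33 (edgeR adjusted p = 0.000261). FOXJ1, the master factor of multiciliated cells, had 16 counts in all 9 libraries. Multiciliated cell markers summed to 63.2 to 92.8 CPM in S239D, 41.9 to 70.5 in S239A and 56.5 to 66.4 in WT. Of 4 tested only CCDC78 was called, and it rose (1.03, edgeR adjusted p = 0.00287). This was 25%, where 41.4% of all genes were called.

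Of 32 genes of thyroid hormone handling 27 were tested. In S239D 6 rose and 5 fell against WT, 40.7% where 41.4% of all genes were called. The other deiodinase genes, DIO1 and DIO3, had 56 and 5 counts in total, and TSHR, the thyrotropin receptor gene, had 0. Of the receptors, THRB rose by 1.21 (SE 0.16, edgeR adjusted p = 3.69e-05), to 43.9 ± 4.0 CPM in S239D, against 18.9 ± 2.9 in WT, and THRA fell by 0.64 (SE 0.11, edgeR adjusted p = 0.000414). SLC3A2, the heavy chain of amino acid transporters that also carry thyroid hormone, rose by 0.92 (SE 0.11, edgeR adjusted p = 2.06e-05), and the coactivator gene NCOA2 by 0.88 (SE 0.12, edgeR adjusted p = 7.63e-05). KLF9, a factor gene induced by thyroid hormone and by glucocorticoids, fell to 22.1 ± 2.0 CPM in S239D, against 65.5 ± 3.8 in WT (-1.57, SE 0.10, edgeR adjusted p = 1.07e-07).

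**Figure D5:**
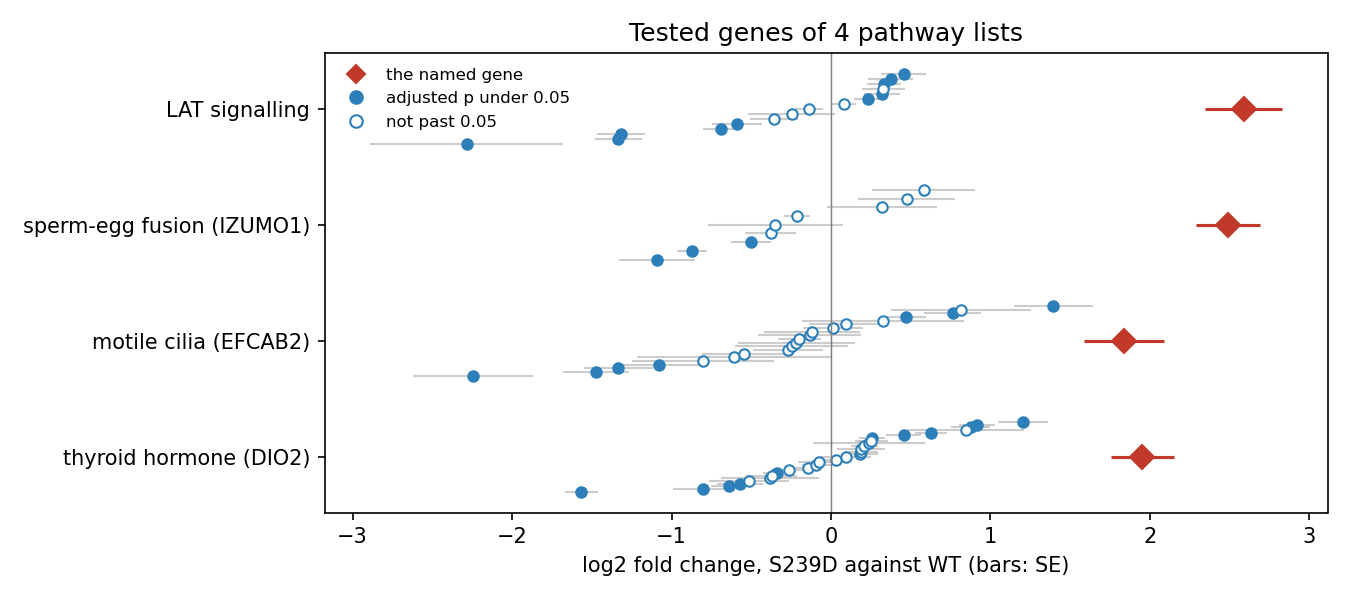
Log2 fold change of S239D against WT (bars, SE) of the tested genes of 4 lists (circles, filled where the edgeR adjusted p was under 0.05), with LAT, IZUMO1, EFCAB2 and DIO2 as diamonds at 2.59, 2.49, 1.84 and 1.95. The listed genes lie on both sides of 0, and none of them is as high as the gene its list was built around. Those genes were chosen for their rise in S239D, so their place above the lists follows largely from that choice.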

How the data were processed

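RNA was measured by sequencing of poly-A selected RNA in 9 libraries, 3 per group. The submitters' processing notes name RSEM and Trimmomatic 0.39. The deposited values are expected counts, which need not be whole, and TPM, which the authors scaled within each library. Aligner, genome build, annotation release and strandedness: not given in the sources used here. Gene positions come from the deposited tables and equal those of GENCODE 29 for 4 of the 5 genes.

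Expected counts, of which 3.81% were not whole, were rounded. Symbol-less genes (1.33% of counts) stayed in. Counts were scaled by TMM, filtered with filterByExpr and tested with edgeR 4.0.16 (R 4.3.3) quasi-likelihood F tests, two-sided, in 1 fit of all 9 libraries, with Benjamini-Hochberg adjustment over 16213 genes and a threshold of 0.05. Intervals are 95%. A floor of 3 counts was 0.307 to 0.527 CPM. The fit was tested on simulated data. Transcript lengths were implied by counts over TPM, with a straight line through genes of 1 GENCODE transcript.

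The 5 genes and the lists were chosen with earlier results of these data known. The named genes followed a rule: the nearest tested and overlapping genes, the called neighbours of largest change (at most 3), the 4 called list members of smallest adjusted p with direct partners, the 3 most alike genes, and the genes next in order of fold change. Deviations from the group means were correlated between libraries, whose numbers are those of the titles. Same-numbered S239D and S239A libraries had r = 0.100, 0.251 and 0.103, and unmatched ones ran from -0.207 to 0.150. S239D replicate 1 correlated more with S239A replicate 3 (r = 0.150) than with S239A replicate 1. Whether the numbers pair these groups was thus not settled. Same-numbered pairs with WT had r from -0.0087 to 0.0914. A further motif was searched and is not reported here. The full CRE was added after the windows were seen, and ACRV1, CCDC78, THRA and some genes at 0 counts were named after their values were seen. Alternatives were RLE scaling, DESeq2 1.42.0, limma 3.58.1 on log2(TPM + 1) and log2(TPM + 0.1), other filters, the compared groups alone, the replicate block, left-out libraries and other windows. EFCAB2 and ANKRD29 start windows were not used here.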

Additional observations from a re-analysis of the deposited data

How the results depend on the processing

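The 5 genes stayed higher in S239D than in WT and S239A under all alternatives run. Their median log2 fold change moved to 1.72 against WT and 2.07 against S239A with limma on log2(TPM + 1). That pseudocount shrinks low genes by construction. With log2(TPM + 0.1) the medians were 2.06 and 2.37. Against S239A, LAT, IZUMO1 and EFCAB2 then stood at 3.01, 2.76 and 2.37. ANKRD29 and DIO2 stood at 2.05 and 1.63, where edgeR gave 2.49 and 2.40. With 1 library left out the edgeR median ran from 1.91 to 2.37 against WT and from 2.42 to 2.66 against S239A. No member passed for S239A against WT under any alternative (0 to 0 with a library left out). DESeq2, however, gave the members no adjusted p in that comparison. With limma on log2(TPM + 1) and log2(TPM + 0.1), called neighbours numbered 31 and 30 against WT and 33 and 31 against S239A, and called list genes against S239A numbered 19 and 19. Fewer genes passed in those fits as a whole. Within 250 kb, 31 of 44 tested neighbours were called against WT (22 higher, 9 lower) and 31 against S239A (21 higher, 10 lower). Within 1000 kb, 78 of 149 were called against WT (42 higher, 36 lower) and 82 against S239A (42 higher, 40 lower). Over all genes 41.4% were called against WT and 43.6% against S239A in that fit. Leaving out 1 library gave 36 to 53 neighbours against WT, 42 to 49 against S239A, and 26 to 36 and 27 to 38 list genes. The share of all genes called against WT also varied between these fits, from 32.2% to 45.5%. The replicate block, fitted over all 9 libraries, gave medians of 2.11 and 2.51, 51 and 49 neighbours, 33 and 34 list genes and 0 members for S239A against WT. Whether same-numbered libraries form pairs was not settled, and not every library correlated best with its own number. The LAMA3 call against S239A held under the block. Depth limits the genes outside S239D, whose group sums were 39 to 118 counts.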
